A study of Homo sapiens with 12 samples.

Results

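The RNA of 9 genes known as targets of the transcription factor p53 was followed in MDA-MB-231, a breast cancer line of triple-negative type: CDKN1A, GADD45A, BTG2, MDM2, RRM2B, SESN1, TP53INP1, ZMAT3 and FAS. The genes were taken by symbol from the deposited count table, and all 9 were present among its 52859 genes. The cells had been transfected with a locked nucleic acid (LNA), a short stabilised oligonucleotide that pairs with a complementary RNA, at 20 nM with a lipid reagent, and were collected on day 2. There were 4 groups of 3 libraries: mtAsn-1 LNA and mtAsn-2 LNA, which are different oligonucleotides against the mitochondrial asparagine tRNA, mtLys LNA, against the mitochondrial lysine tRNA, and a control LNA. All cells, controls included, thus received an LNA and the transfection reagent, and all came from this 1 line. Whether replicates were grown as separate cultures is not stated, and the p-values therefore reflect variation between libraries that could be technical.

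Total counts ran from 17978825 to 37708993 per library, and 16051 genes were tested. Levels are given as CPM (counts scaled to library size with TMM factors), and as RPKM (CPM per kilobase of the gene's exons) where genes are set against each other. Mesenchymal genes of this line were high in every library (VIM 1370 to 1798 RPKM, AXL 165 to 224 RPKM), while ESR1 had at most 6 reads, PGR at most 1, CDH1 at most 15 and the leukocyte gene PTPRC at most 10. ERBB2 (15.9 to 21.2 RPKM) and GATA3 (3.04 to 4.23 RPKM), listed beforehand as low like ESR1, PGR and CDH1, were read in every library. CDKN2A, whose ARF product restrains MDM2, had 0 reads in all 12 libraries, which allows up to 3 reads per library, or 0.167 CPM in the smallest (counting error only). The targeted tRNA genes were read next: TRNN, for asparagine, had 2 to 5 reads in mtAsn-1 libraries, 1 to 3 in mtAsn-2 libraries and 2 to 6 in control libraries, too few to read, and TRNK, for lysine, had 7.55, 8.29 and 7.37 CPM in mtLys libraries, against 6.80, 5.88 and 5.93 CPM in control libraries. TRNK was thus not lower with mtLys than with control, and it had 6.21 to 9.67 CPM with mtAsn-1 and 6.61 to 10.2 CPM with mtAsn-2. Whether the LNAs reached their targets was not tested, and groups are as labelled. In such bulk libraries, fewer cells expressing a gene and less of its RNA per cell cannot be told apart.

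p53 binds a pair of short repeats in DNA and raises the transcription of genes that stop the cell cycle, repair DNA, limit growth signals or start apoptosis. MDM2, itself a target, marks p53 protein for degradation and so closes a feedback loop. This describes normal p53, whereas the cells used here carry mutant p53. Many p53 targets also answer to other factors, and whether p53 acted on these genes in these cells was not tested.

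Stretches that resemble the p53 response element can be read in some of these genes' RefSeq promoter windows (250 bases before to 50 after an annotated start, build GRCh38.p14), and they are shown because the 3 genes with a match differed in their values, given further on. The window table held CDKN1A, MDM2, SESN1, BTG2, ZMAT3 and FAS. Windows were searched for the p53 response element, taken as 2 consensus decamers side by side (20 bases, which read the same on both strands), with at most 3 mismatches. A match was found in MDM2, SESN1 and FAS, and in none of the windows of CDKN1A, BTG2 or ZMAT3, whose best stretches had 5, 4 and 4 mismatches. Among all 35116 windows, 5.2% held a match, and among 11195 tested genes with a window 5.85% did. The matches are in capitals below, 5′ to 3′ on the gene's strand, with flanking reference sequence in lower case.
MDM2, chr12:68808883-68809020, plus strand: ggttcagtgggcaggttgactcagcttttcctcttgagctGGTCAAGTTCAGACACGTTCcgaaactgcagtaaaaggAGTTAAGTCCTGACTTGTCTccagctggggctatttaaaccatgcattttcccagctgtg
SESN1, chr6:109008978-109009077, minus strand: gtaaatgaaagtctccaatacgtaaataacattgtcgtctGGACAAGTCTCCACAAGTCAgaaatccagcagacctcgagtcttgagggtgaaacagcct
FAS, chr10:88991269-88991368, plus strand: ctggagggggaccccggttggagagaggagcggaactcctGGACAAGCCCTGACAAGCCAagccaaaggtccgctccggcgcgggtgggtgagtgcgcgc
MDM2 held 2 matches, with 2 and 3 mismatches and 18 bases between them. The SESN1 match had 3 mismatches and the FAS match 2, and all 4 matches lay inside the spans that the deposited table gives for these genes. A match is a run of letters in a window and says nothing of binding in these cells, and a window without one says nothing of sites elsewhere in the gene.

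The 9 genes spanned a wide range of RNA levels. In control cells CDKN1A stood highest per length at 60.0 ± 2.62 RPKM, followed by GADD45A at 25.1 ± 3.16, MDM2 at 6.25 ± 0.161, RRM2B at 6.07 ± 0.293, TP53INP1 at 4.77 ± 0.257, ZMAT3 at 1.52 ± 0.12, SESN1 at 1.17 ± 0.0581, FAS at 0.208 ± 0.0453 and BTG2 at 0.184 ± 0.103 (SD, n = 3). MDM2 and RRM2B did not differ beyond their spread there, nor did FAS and BTG2, while each other step in that order was larger than the SDs. The order was nearly kept with the other LNAs: mean RRM2B stood above MDM2 with mtAsn-1, mtAsn-2 and mtLys, and mean BTG2 stood above FAS with mtAsn-2. RRM2B and MDM2 with mtAsn-1 (5 ± 0.442 and 4.9 ± 0.224 RPKM) did not differ beyond their spread. Nor did BTG2 and FAS with mtAsn-2 (0.443 ± 0.124 and 0.329 ± 0.0163 RPKM). All 9 genes passed the filter on low counts. BTG2 was the scarcest, with 5 to 58 reads per library and 9 of 12 libraries at or over the filter's 0.34 CPM.

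**Figure D1:**
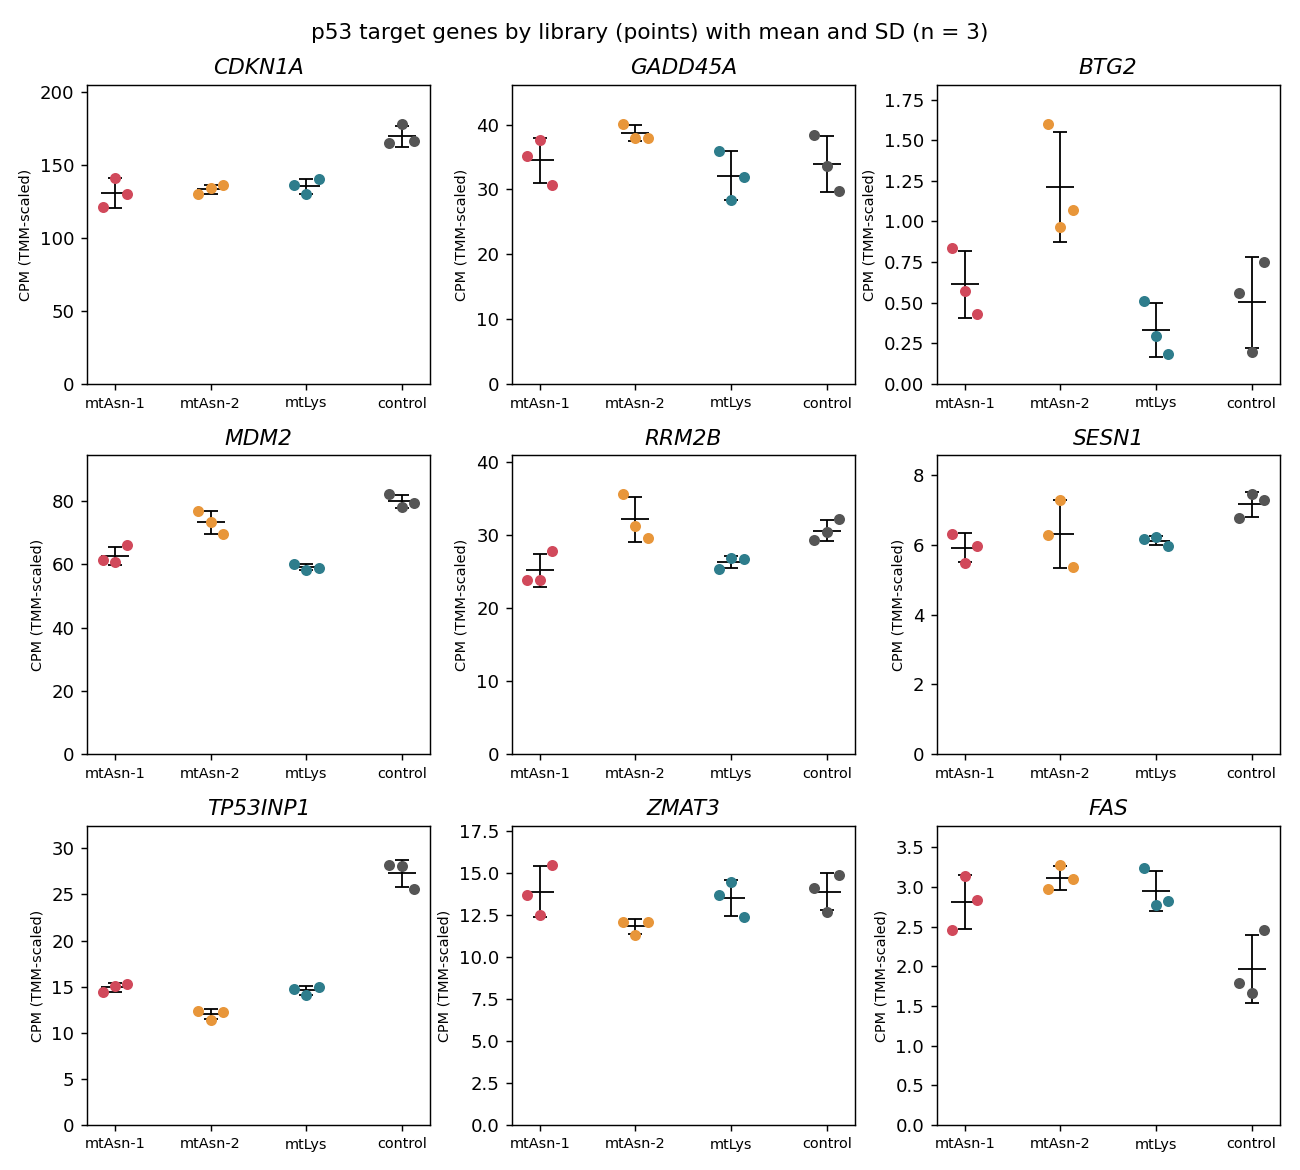
CPM of the 9 p53 target genes (vertical axes from 0, each on its own scale) in mtAsn-1, mtAsn-2, mtLys and control libraries; points are libraries and bars the mean and SD of 3. TP53INP1, CDKN1A and MDM2 are highest in control, FAS is lowest in control, and BTG2 is highest with mtAsn-2.

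Against control, the p53 target genes changed in both directions: TP53INP1, CDKN1A and MDM2 fell and FAS rose with every tRNA LNA, and RRM2B, ZMAT3 and BTG2 changed with some of them. With mtAsn-1, 4 of 9 were lower (CDKN1A, MDM2, RRM2B and TP53INP1) and 1 higher (FAS) by edgeR's quasi-likelihood test (Benjamini-Hochberg adjusted p under 0.05). With mtAsn-2, 4 were lower (CDKN1A, MDM2, TP53INP1 and ZMAT3) and 2 higher (BTG2 and FAS). With mtLys, 4 were lower (CDKN1A, MDM2, RRM2B and TP53INP1) and 1 higher (FAS). Among all tested genes 48.5% were called with mtAsn-1 (24.2% lower, 24.3% higher), 51.1% with mtAsn-2 (27.0% lower, 24.1% higher) and 48.5% with mtLys (23.9% lower, 24.6% higher), and the counts of 5, 6 and 5 among the 9 genes lie near what those shares give. The libraries did not overlap for 6 of 9 genes in each of these comparisons, where 53.8%, 56.8% and 56.3% of all tested genes did not overlap with mtAsn-1, mtAsn-2 and mtLys. Their median log2 fold change was -0.27 for mtAsn-1, -0.12 for mtAsn-2 and -0.23 for mtLys, beside -0.00, -0.01 and -0.00 over all tested genes. In all, 7 of 9 were called with at least 1 LNA, 4 with all 3, and none in opposite directions with different LNAs. The 3 comparisons share the control libraries.

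Genes that restrain the cell cycle were examined first. CDKN1A (chromosome 6, 36676250 to 36687339, plus strand, hg38) encodes p21, the inhibitor of cyclin-dependent kinases through which p53 arrests cells. It had 121, 141 and 130 CPM in mtAsn-1 libraries, 130, 134 and 136 in mtAsn-2 libraries, 136, 130 and 140 in mtLys libraries, and 165, 178 and 166 in control libraries. Every library of the tRNA LNAs lay below every control library, and the 3 tRNA LNAs overlapped each other. The log2 fold change against control was -0.38 ± 0.0484 for mtAsn-1 (SE, adjusted p = 1.81e-07), -0.35 ± 0.0475 for mtAsn-2 (4.77e-07) and -0.33 ± 0.0475 for mtLys (1.70e-06). The annotated antisense gene DINOL overlaps 238 of CDKN1A's 2828 exon bases, and it had at most 2 reads in any library.

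GADD45A (chromosome 1, 67685201 to 67688334, plus strand) is a stress-induced inhibitor of the G2 to M transition. It had 35.1, 37.6 and 30.7 CPM in mtAsn-1 libraries, 40.1, 37.9 and 38 in mtAsn-2 libraries, 36, 28.4 and 31.9 in mtLys libraries, and 38.4, 33.6 and 29.8 in control libraries. The control libraries overlapped those of each tRNA LNA, and no comparison with control passed. With mtAsn-2 the log2 fold change was 0.18 (95% interval -0.02 to 0.38, adjusted p = 0.123 by edgeR), and that comparison passed without control replicate 1 (0.28, adjusted p = 0.0145) or mtLys replicate 2 (0.0472), in the compared groups alone (0.0181) and without the filter on low counts (0.00198). The intervals with mtAsn-1 (-0.21 to 0.21) and mtLys (-0.29 to 0.12) included 0.

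BTG2 (chromosome 1, 203305519 to 203309602, plus strand) encodes an antiproliferative protein that recruits the mRNA deadenylation machinery. Its reads numbered 17, 10 and 12 in mtAsn-1 libraries, 58, 31 and 35 in mtAsn-2 libraries, 19, 10 and 5 in mtLys libraries, and 15, 6 and 14 in control libraries. These were 0.838, 0.572 and 0.431 CPM in mtAsn-1 libraries, 1.60, 0.968 and 1.07 in mtAsn-2 libraries, 0.512, 0.293 and 0.186 in mtLys libraries, and 0.560, 0.195 and 0.748 in control libraries. Every mtAsn-2 library lay above all others, and the remaining groups overlapped. BTG2 rose with mtAsn-2 by a log2 fold change of 1.39 ± 0.344 (adjusted p = 0.00153 by edgeR), or 0.93 (adjusted p = 0.0245) without control replicate 2. With mtAsn-1 (0.36, interval -0.53 to 1.26) and mtLys (-0.42, interval -1.34 to 0.51) the few reads left wide intervals, and a change was not detectable at this depth.

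The feedback gene MDM2 (chromosome 12, 68808149 to 68850686, plus strand), which encodes the ubiquitin ligase of p53, had 61.4, 60.7 and 66.0 CPM in mtAsn-1 libraries, 76.9, 73.4 and 69.7 in mtAsn-2 libraries, 60.0, 58.1 and 59.0 in mtLys libraries, and 82.1, 78.1 and 79.5 in control libraries. The control libraries were highest, the mtAsn-2 libraries came next, and those of mtAsn-1 and mtLys were lowest, without overlap between these 3 levels. MDM2 fell with mtAsn-1 (log2 fold change -0.35 ± 0.0487, adjusted p = 1.06e-06 by edgeR) and with mtLys (-0.44 ± 0.0476, 1.33e-08). With mtAsn-2 the fall was smaller (-0.12 ± 0.0469, adjusted p = 0.0297) and did not hold in DESeq2 (0.0701), in the compared groups alone (0.0756), without the filter (0.177), or without control replicate 1 (0.118) or 3 (0.055), mtAsn-2 replicate 2 (0.0829) or 3 (0.162) or mtLys replicate 2 (0.0503). The carboxypeptidase M gene, on the opposite strand, shares 137 of MDM2's 12793 exon bases and rose with each tRNA LNA (log2 fold changes 1.05, 0.83 and 0.88), and its part in the MDM2 values was not tested.

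Other parts of the p53 circuit had patterns of their own. MDM4, the partner of MDM2 that masks p53's activation domain, averaged 26.5 ± 0.597 CPM with mtAsn-1, 32.6 ± 2 with mtAsn-2, 21.9 ± 1.02 with mtLys and 28.0 ± 0.762 with control. MDM4 rose with mtAsn-2 (log2 fold change 0.22, adjusted p = 0.00265 by edgeR) and fell with mtLys (-0.36, adjusted p = 1.62e-05), and the difference between these LNAs passed its own test (0.57 ± 0.058, adjusted p = 2.80e-09). PPM1D, the phosphatase gene that switches the p53 response off and is itself a p53 target, fell with mtAsn-1 (-0.31, adjusted p = 0.00149) and mtLys (-0.32, adjusted p = 6.94e-04) and stood at -0.12 with mtAsn-2 (adjusted p = 0.166).

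Among the genes of nucleotide supply and growth control, RRM2B (chromosome 8, 102204501 to 102238961, minus strand), which encodes the p53-inducible small subunit of ribonucleotide reductase that also supplies nucleotides for mitochondrial DNA, had 23.9, 23.9 and 27.8 CPM in mtAsn-1 libraries, 35.6, 31.3 and 29.6 in mtAsn-2 libraries, 25.4, 26.9 and 26.8 in mtLys libraries, and 29.3, 30.4 and 32.2 in control libraries. The mtAsn-1 and mtLys libraries lay below all control libraries, and the mtAsn-2 libraries overlapped control. RRM2B fell with mtAsn-1 (-0.27 ± 0.072, adjusted p = 0.00305 by edgeR) and mtLys (-0.21 ± 0.0686, adjusted p = 0.0112), and the mtLys call was lost without control replicate 3 (0.0547) or mtLys replicate 1 (0.0582). With mtAsn-2 the value was 0.08 (interval -0.06 to 0.21).

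SESN1 (chromosome 6, 108984309 to 109094846, minus strand) encodes a sestrin, which dampens mTORC1 signalling under stress. It had 6.31, 5.49 and 5.96 CPM in mtAsn-1 libraries, 6.28, 7.28 and 5.36 in mtAsn-2 libraries, 6.17, 6.21 and 5.96 in mtLys libraries, and 6.76, 7.44 and 7.27 in control libraries. The mtAsn-1 and mtLys libraries lay below the control libraries and 1 mtAsn-2 library lay among them. No comparison with control passed: log2 fold changes were -0.27 with mtAsn-1 (interval -0.50 to -0.04, adjusted p = 0.0513 by edgeR), -0.18 with mtAsn-2 (interval -0.40 to 0.03, 0.148) and -0.23 with mtLys (interval -0.44 to -0.01, 0.0807). The mtAsn-1 value passed under the stricter filter (0.0436) and without control replicate 1 (0.0469) or mtAsn-2 replicate 2 (0.0411) or 3 (0.0374), and the mtAsn-2 value without mtAsn-2 replicate 2 (-0.29, adjusted p = 0.0361). CEP57L1, on the opposite strand, shares 225 of SESN1's 6100 exon bases and rose with mtAsn-1 (0.26, adjusted p = 0.00966), and its part in the SESN1 values was not tested.

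TP53INP1 had the largest fall against control among the 9 genes with each of the 3 LNAs. The gene (chromosome 8, 94925972 to 94949378, minus strand) encodes a stress-induced nuclear protein that takes part in apoptosis and autophagy. It had 14.4, 15.1 and 15.3 CPM in mtAsn-1 libraries, 12.4, 11.4 and 12.2 in mtAsn-2 libraries, 14.7, 14.1 and 15.0 in mtLys libraries, and 28.2, 28.1 and 25.6 in control libraries. The control libraries were far above the rest, and those of mtAsn-2 were the lowest, below every mtAsn-1 and mtLys library. Levels were 0.546, 0.439 and 0.532 times those in control for mtAsn-1, mtAsn-2 and mtLys. The log2 fold changes were -0.87 ± 0.0688 (adjusted p = 2.93e-11 by edgeR), -1.19 ± 0.0666 (1.36e-14) and -0.91 ± 0.0654 (4.51e-12). NDUFAF6, on the opposite strand, shares 86 of TP53INP1's 5729 exon bases and did not pass with any LNA (log2 fold changes -0.04, 0.10 and 0.08).

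ZMAT3 (chromosome 3, 179017223 to 179071868, minus strand) encodes a zinc-finger protein that binds RNA and affects splicing. It had 13.7, 12.5 and 15.5 CPM in mtAsn-1 libraries, 12.1, 11.3 and 12.1 in mtAsn-2 libraries, 13.7, 14.5 and 12.4 in mtLys libraries, and 14.1, 12.7 and 14.9 in control libraries. The mtAsn-2 libraries lay just below those of the other groups. Its fall with mtAsn-2 was small (-0.22 ± 0.0853, adjusted p = 0.0316 by edgeR) and was lost in DESeq2 (0.0804), without the filter (0.0707), and without control replicate 1 (0.0893) or 3 (0.128) or mtAsn-2 replicate 1 (0.0533) or 2 (0.124). The intervals with mtAsn-1 (-0.15 to 0.21) and mtLys (-0.20 to 0.15) included 0.

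FAS (chromosome 10, 88968429 to 89017059, plus strand), the death receptor gene, was the only one of the 9 to rise with all 3 LNAs. It had 2.46, 3.14 and 2.84 CPM in mtAsn-1 libraries, 2.97, 3.28 and 3.10 in mtAsn-2 libraries, 3.24, 2.78 and 2.83 in mtLys libraries, and 1.79, 1.66 and 2.46 in control libraries. Control replicate 3 stood above the other controls and beside the lowest mtAsn-1 library, so the groups came close without overlapping. The log2 fold change was 0.55 ± 0.172 for mtAsn-1 (adjusted p = 0.00918 by edgeR), 0.70 ± 0.157 for mtAsn-2 (4.66e-04) and 0.63 ± 0.159 for mtLys (0.00177), and the mtAsn-1 call was lost without control replicate 2 (0.43, adjusted p = 0.0711). ACTA2, on the opposite strand, shares 202 of FAS's 9480 exon bases, had 9 to 47 reads and rose with each LNA (log2 fold changes 1.26, 1.21 and 1.22), and its part in the FAS values was not tested.

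**Figure D2:**
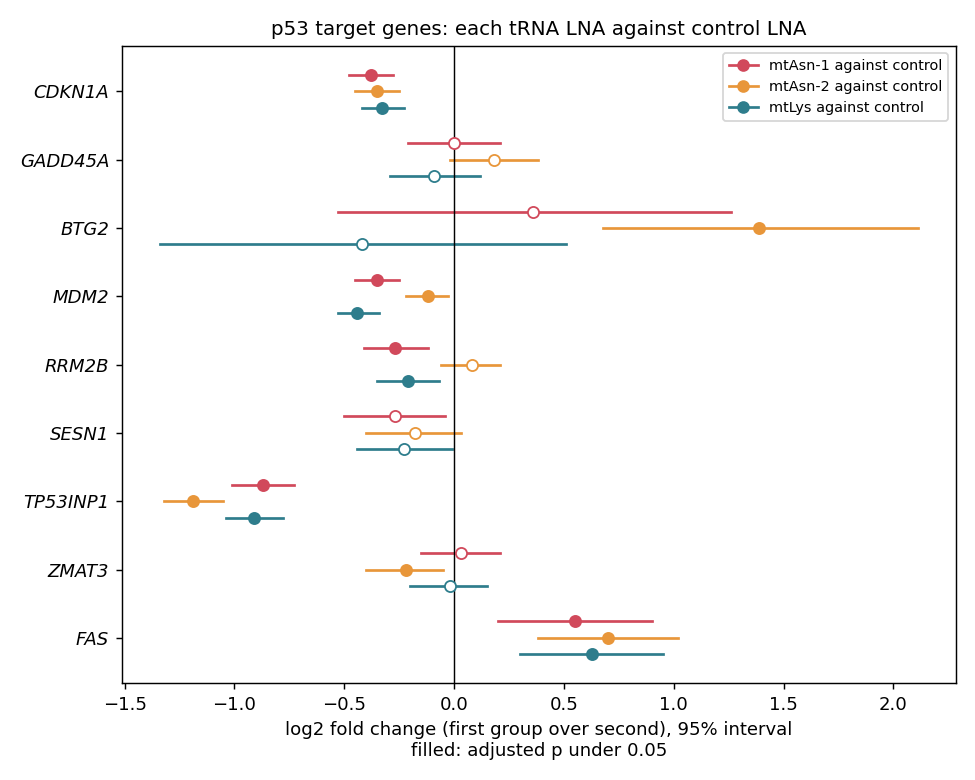
Log2 fold change of each p53 target gene against control (horizontal axis) with mtAsn-1, mtAsn-2 and mtLys; lines are 95% intervals from the edgeR fit and filled points have an adjusted p under 0.05. TP53INP1 lies farthest left with all 3 LNAs (-0.87, -1.19 and -0.91) and FAS lies right of 0 with all 3.

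The LNAs were then set against each other, in contrasts that leave out the control group's mean, although the control libraries still entered the shared fit and its estimate of spread. Between mtAsn-1 and mtLys, oligonucleotides against different tRNAs, 0 of 9 genes were called by edgeR, 0 had an unadjusted p under 0.05 and 0 were called by DESeq2. Over all tested genes 5.26% were called in that comparison (2.12% higher, 3.14% lower). MDM2 was the 1 gene of 9 whose libraries did not overlap, beside 24.1% of all tested genes. The intervals of the difference were narrow for CDKN1A (-0.15 to 0.04), MDM2 (-0.01 to 0.19), TP53INP1 (-0.11 to 0.18) and RRM2B (-0.20 to 0.09), and were wide for FAS (-0.39 to 0.24) and BTG2 (-0.12 to 1.68).

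Between the LNAs against the same tRNA more genes were called than between mtAsn-1 and mtLys. Comparing mtAsn-1 with mtAsn-2, 5 of 9 genes were called, 2 higher and 3 lower with mtAsn-1, where 46.5% of all tested genes were called (24.6% higher, 21.9% lower), and the libraries of 6 of 9 did not overlap, beside 52.7% of all. TP53INP1 (0.31 ± 0.073, adjusted p = 7.84e-04 by edgeR) and ZMAT3 (0.25 ± 0.0868, 0.0197) were higher with mtAsn-1, and MDM2 (-0.22 ± 0.0481, 3.55e-04), RRM2B (-0.34 ± 0.0698, 1.93e-04) and BTG2 (-1.03 ± 0.339, 0.0153) were lower. The BTG2 call was lost in DESeq2 (0.0575), without replicate 3 of mtAsn-1 (0.113) and without replicate 1 of mtAsn-2 (0.095), and that of ZMAT3 without replicate 3 of mtAsn-1 (0.22) or replicate 2 of mtAsn-2 (0.0864). Without mtAsn-1 replicate 3, therefore, 3 of the 9 genes were called.

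Between mtAsn-2 and mtLys, 4 of 9 genes were higher and 2 lower with mtAsn-2, where 48.6% of all tested genes were called (22.9% higher, 25.7% lower), and the libraries of 6 of 9 did not overlap, beside 56.6% of all. MDM2 (0.31 ± 0.047, adjusted p = 2.65e-06 by edgeR), RRM2B (0.29 ± 0.0663, 6.42e-04), BTG2 (1.81 ± 0.342, 1.11e-04) and GADD45A (0.27 ± 0.092, 0.026) were higher with mtAsn-2, and TP53INP1 (-0.28 ± 0.0693, 0.00142) and ZMAT3 (-0.20 ± 0.0826, 0.0496) were lower. MDM2, RRM2B and BTG2 were thus the 3 genes called higher with mtAsn-2 than with both mtAsn-1 and mtLys. The GADD45A call was lost without mtAsn-2 replicate 1 (0.0896) or 3 (0.0562) or mtLys replicate 2 (0.0847) or 3 (0.0654), and the ZMAT3 call in 13 of 18 alternatives (adjusted p up to 0.226), those without control replicate 1 (0.0528) or 3 (0.0507) among them. CDKN1A, SESN1 and FAS were not called between any of the tRNA LNAs. For CDKN1A the intervals were narrow (-0.13 to 0.07 between mtAsn-1 and mtAsn-2, -0.12 to 0.08 between mtAsn-2 and mtLys), and for FAS wider (-0.46 to 0.16 and -0.21 to 0.36).

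**Figure D3:**
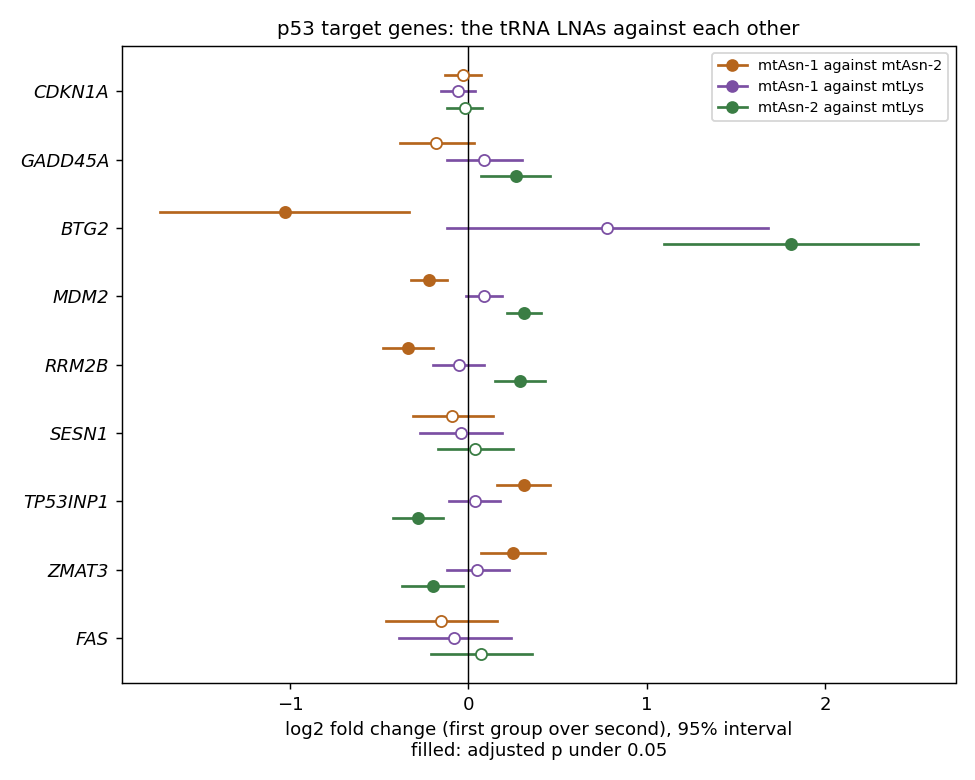
Log2 fold change of each p53 target gene between tRNA LNAs (first named over second, horizontal axis) with 95% intervals; filled points have an adjusted p under 0.05. No point of mtAsn-1 against mtLys is filled, while MDM2, RRM2B and BTG2 lie left of 0 for mtAsn-1 against mtAsn-2 and right of 0 for mtAsn-2 against mtLys.

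The 3 genes with matched windows, whose sequences are given above, did not share 1 direction. FAS rose with all 3 LNAs. MDM2 was called lower with all 3 (-0.35, -0.12 and -0.44), though its mtAsn-2 call was lost in 8 of 18 alternatives. SESN1 was called with none, but its log2 fold changes had the same sign as those of MDM2 (-0.27, -0.18 and -0.23). Among the 655 tested genes with a match in a window, 27.2% were higher and 23.2% lower in the mtAsn-1 comparison with control, 24.9% were higher and 29.5% lower in that of mtAsn-2, and 28.1% were higher and 21.2% lower in that of mtLys. Among the 11195 tested genes with a window the shares were 27.1% and 26.1%, 26.1% and 29.2%, and 27.1% and 25.5%. The median log2 fold change of the genes with a match was 0.03, -0.00 and 0.03.

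BTG2, TP53INP1 and FAS had the widest range of group means, 1.73, 1.18 and 0.66 on the log2 CPM scale. BTG2 (5 to 58 reads per library) and FAS (46 to 120) were also the scarcest genes, and how far counting error widened their ranges was not tested. The 10200 protein-coding genes with a mean log2 CPM of at least 2 were ranked by the root mean square difference of their centred group means (4 groups) from each. Nearest to TP53INP1 were MIDN (0.0566), KLHL24 (0.0678) and PER2 (0.089), all high in control. Nearest to BTG2 were EGR1 (0.212), CD83 (0.232) and CA2 (0.259), all high with mtAsn-2 and at larger distances. Nearest to FAS were IQCB1 (0.0181), IPO9 (0.0186) and POGZ (0.0239). How near the closest genes lie to other profiles was not tested.

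The other genes of the p53 network, 128 in 7 lists, were read for context, and 120 of them could be tested. With mtAsn-1, 40 were higher and 38 lower, with mtAsn-2 33 and 46, and with mtLys 31 and 40, with medians of 0.00, -0.00 and -0.00. The shares over all tested genes, beside which these counts and those of each list stand, were 24.3% higher (24.2% lower) in the mtAsn-1 comparison, 24.1% higher (27.0% lower) in the mtAsn-2 comparison and 24.6% higher (23.9% lower) in the mtLys comparison. Targets of cell cycle arrest were mostly called lower: of 13 tested, 9 were lower and 2 higher with each of the 3 LNAs, with medians of -0.35, -0.39 and -0.48. TOB1, an antiproliferative relative of BTG2, averaged 21.3 CPM with mtAsn-1, 24.7 with mtAsn-2, 23 with mtLys and 44.4 with control (log2 fold changes -1.06, -0.85 and -0.95, adjusted p at most 1.30e-12 by edgeR), though TOB1, like PLK3, RRM2, CDC25C and PLK1 below, overlaps a gene on the opposite strand. SERTAD1 fell with each LNA (-0.66, -0.52 and -0.69) and PLK3 rose with each (0.50, 0.45 and 0.41). SFN, the 14-3-3 sigma gene, fell with mtAsn-2 (-0.64) and slightly with mtAsn-1 (-0.12), and stood at -0.11 with mtLys (adjusted p = 0.0598 by edgeR).

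Of 16 apoptosis targets tested, 2 rose and 8 fell with mtAsn-1; the counts for mtAsn-2 were 4 and 5, and for mtLys 2 and 5. The mtAsn-2 counts and the mtLys count of lower genes lie near the shares over all tested genes. The death receptor gene TNFRSF10A rose like FAS with all 3 LNAs (0.52, 0.90 and 0.57), while the decoy receptor gene TNFRSF10D fell (-0.52, -1.06 and -0.42). BAX rose with all 3 (0.28, 0.13 and 0.24). PMAIP1, the NOXA gene, fell with mtAsn-1 (-0.54) and mtLys (-0.51) and stood at 0.05 with mtAsn-2 (adjusted p = 0.474 by edgeR). PMAIP1 was higher with mtAsn-2 than with mtLys (0.56, adjusted p = 5.93e-09 by edgeR), as MDM2, RRM2B and BTG2 were. Others of the list, such as TNFRSF10D (-0.64) and PERP (-0.29), were lower in that comparison. In all, 5 of the 16 were higher and 4 lower there, beside 22.9% and 25.7% of all tested genes.

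Among 11 repair targets, 6 rose and 2 fell with mtAsn-1; the counts for mtAsn-2 were 3 and 4, and for mtLys 5 and 1. DDB2, a sensor of ultraviolet damage, rose with all 3 LNAs (0.63, 0.42 and 0.63), and XPC, its partner in nucleotide excision repair, fell with all 3 (-0.52, -0.49 and -0.55). Among 19 regulators tested, 4 rose and 6 fell with mtAsn-1; the counts for mtAsn-2 were 5 and 7, and for mtLys 4 and 8. The kinase gene ATM, which signals DNA breaks to p53, averaged 80.5 CPM with mtAsn-1, 34.3 with mtAsn-2, 80.0 with mtLys and 51.9 with control, so it rose with mtAsn-1 (0.64) and mtLys (0.63) and fell with mtAsn-2 (-0.59), and it overlaps antisense exons of NPAT and C11orf65. CHEK2 rose with all 3 LNAs (0.61, 0.80 and 0.58), and EP300 (-0.42, -0.61 and -0.36) and SIRT1 (-0.54, -0.82 and -0.69) fell with all 3.

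Metabolic targets numbered 23 tested, of which 8 rose and 7 fell with mtAsn-1; the counts for mtAsn-2 were 7 and 12, and for mtLys 5 and 9. SUSD6 fell with all 3 LNAs (-0.41, -1.21 and -0.21), as did ULK1, which starts autophagy (-0.55, -0.89 and -0.71), and FDXR rose with all 3 (0.44, 0.58 and 0.23). Of 20 secreted and other targets, 7 rose and 6 fell with mtAsn-1; the counts for mtAsn-2 were 2 and 8, and for mtLys 8 and 6. GDF15, a stress cytokine gene, averaged 11.2 CPM with mtAsn-1, 15 with mtAsn-2, 9.24 with mtLys and 31.9 with control (log2 fold changes -1.52, -1.10 and -1.80). CD82 rose with mtAsn-1 (0.63) and mtLys (0.55) and stood at -0.05 with mtAsn-2 (adjusted p = 0.379 by edgeR).

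Genes that p53 lowers through p21 and the DREAM repressor complex, most of them drivers of S phase and mitosis, formed the last list. Of 18 tested, 11 rose and 0 fell with mtAsn-1; the counts for mtAsn-2 were 10 and 1, and for mtLys 5 and 2, with medians of 0.13, 0.14 and 0.04 beside -0.00, -0.01 and -0.00 over all tested genes. The mtLys count of 5 higher genes lies near the 24.6% of all tested genes. RRM2, the cell-cycle counterpart of RRM2B, averaged 242 CPM with mtAsn-1, 241 with mtAsn-2, 244 with mtLys and 194 with control (log2 fold changes 0.32, 0.32 and 0.33). CDC25C rose with all 3 LNAs (0.38, 0.33 and 0.19). CENPF rose with mtAsn-1 (0.21) and mtAsn-2 (0.26), and MYBL2 with mtAsn-1 (0.18) and mtLys (0.21). MCM5 rose with mtAsn-1 (0.14) and fell with mtAsn-2 (-0.24), and PLK1 fell with mtLys (-0.14).

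**Figure D4:**
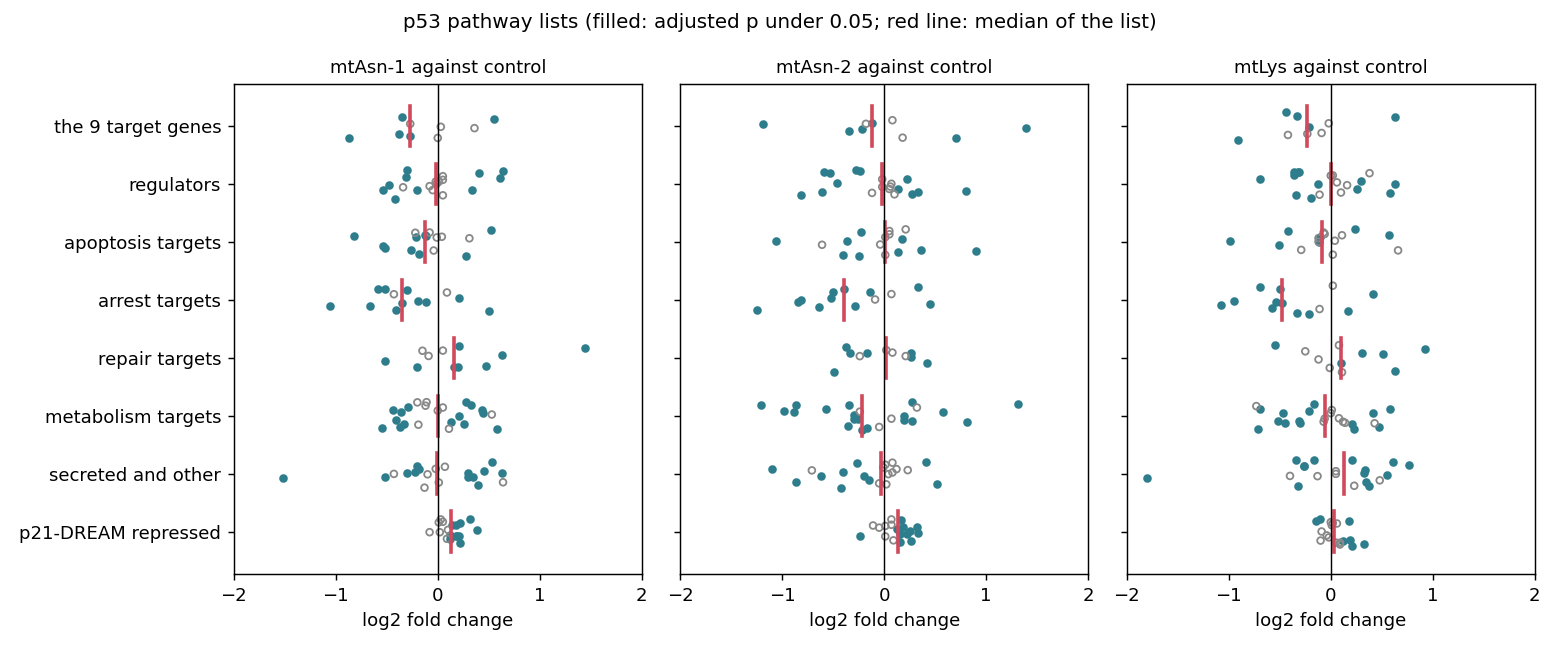
Log2 fold change against control (horizontal axis) of the 9 p53 target genes and of 7 lists of other p53 network genes (rows) with mtAsn-1, mtAsn-2 and mtLys (panels); points are genes, filled where the adjusted p is under 0.05, and red lines are list medians. Arrest targets lie mostly left of 0 (medians -0.35, -0.39 and -0.48), and p21-DREAM genes lie close to 0.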

How the data were processed

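The authors deposited raw counts of reads per gene for 12 libraries, made with the TruSeq RNA Library Kit v2 per the labels. The submitters' processing notes list FastQC, STAR 2.6.0a, featureCounts, DESeq2 and hg38 without the role of each. Whether counting used strand is not given in the sources used here. Deposited gene lengths were taken as exon length for RPKM. Of 52897 lines, 38 were broken and left out. The counts were fitted with edgeR 4.0.16 (R 4.3.3), using TMM factors, filterByExpr by group (minimum count 10, total 15), 1 robust quasi-likelihood fit of all 12 libraries with contrasts of group means, and Benjamini-Hochberg adjustment over 16051 genes per comparison. Standard errors were back-calculated by dividing the size of the log2 fold change by the root of F, and 95% intervals use them with the fit's t quantiles. Log2 CPM used a prior count of 2. No library looked like a copy of another in its own group (chi-square per gene at least 2.432), and libraries of different groups were not compared in this way. The 9 genes and the lists were chosen with earlier results of these data known. All 9 genes and MDM4 were named (1 further regulator in the rule is not reported here), and from each list up to 2 genes higher and 2 lower with the smallest adjusted p per comparison and mean log2 CPM of at least 2; of these the text gives a selection, and MDM4, PPM1D and CDKN2A also as circuit genes (PPM1D and CDKN2A chosen after their values were seen). Also tried were DESeq2 1.42.0, RLE factors in edgeR, no filter, a stricter filter (1 CPM in each library of a group, mean log2 CPM 2), a replicate block, the compared groups alone, and leaving out each library. RefSeq promoter windows (GRCh38.p14) were scanned with Python 3.11.15, pandas 2.3.3 and numpy 2.4.6, and plots used matplotlib 3.10.9.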

Additional observations from a re-analysis of the deposited data

How the results depend on the processing

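Directions and calls of the 9 genes were compared with those reported in 960 cases (6 comparisons under up to 18 alternatives, with BTG2 and FAS dropping out under the stricter filter): 888 kept both, 39 lost the call, 12 gained one and 21 changed sign. No called value changed sign. For the values that changed sign, ranges over all alternatives follow. With mtAsn-1 against control they were -0.07 to 0.10 for GADD45A, -0.10 to 0.70 for BTG2 and -0.07 to 0.10 for ZMAT3. Under the stricter filter that GADD45A value was -0.0021. With mtLys against control they were -0.18 to 0.01 for GADD45A and -0.09 to 0.03 for ZMAT3. Between mtAsn-1 and mtAsn-2 they were -0.09 to 0.02 for CDKN1A and -0.19 to 0.02 for SESN1. Between mtAsn-1 and mtLys they were -0.04 to 0.12 for ZMAT3 and -0.15 to 0.0029 for FAS. Between mtAsn-2 and mtLys they were -0.05 to 0.0048 for CDKN1A and -0.06 to 0.14 for SESN1. Leaving out 1 library gave 3 to 5 of the 9 genes between mtAsn-1 and mtAsn-2, and 404 to 922 genes and 8 to 16 other pathway genes between mtAsn-1 and mtLys; the cause was not tested. No pairing by replicate number was seen: correlations of same-numbered libraries' deviations ran from -0.099 to 0.042, and in 8 of 36 cases a library correlated best with its own number. Whether same-numbered libraries were prepared together is not stated, and these correlations cannot settle it. With the replicate block, GADD45A passed with mtAsn-2 against control (0.19, adjusted p = 0.0313 by edgeR), ZMAT3 no longer passed between mtAsn-2 and mtLys (-0.20, adjusted p = 0.0566), and no other call of the 9 genes changed. Depth limits BTG2 most, with 5 to 58 reads per library.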
